A study of Mus with 2 samples.

Results

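Type I interferon-stimulated genes were examined in spatial transcriptomes of CT26 tumors. The set was a fixed list of 38 genes that type I interferon is known to induce, taken as members when their symbol was among the features of the count tables and they held at least 20 UMIs (unique molecular identifiers, each standing for 1 captured RNA molecule) over both sections. Of the 38 genes, 36 were found and all 36 passed, out of 32285 features of which 14313 passed the same minimum. Mx1 and Mx2 were not analysed here.

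CT26 is a colon carcinoma line of BALB/c mice, and 200000 cells were implanted in BALB/c mice of 6 to 8 weeks. The treated mouse received 10 µg of recombinant mouse IL7 (rIL7) into the peritoneum on days 11 and 13, the control mouse received PBS, and tumors were taken on day 15. Each group was 1 tumor section of 10 µm, so every difference is one between 2 sections with no replicate, and no test was possible. Intervals are 95% exact intervals that cover counting error only.

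After filtering, 2219 control spots (22951678 UMIs) and 1950 rIL7 spots (25729233 UMIs) remained, with a median of 9623 and 12921.5 UMIs per spot. Levels are in CPM, UMIs per 1000000 UMIs of the section, without scaling by gene length because the assay tags the 3′ end of each molecule. The CT26 markers Rpl39l and Baiap2l1 were present in both sections, at 432 and 861 CPM in the control and 379 and 664 CPM in rIL7. A Visium spot covers several cells, so more cells expressing a gene and more RNA per cell cannot be told apart.

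Type I interferons (the IFN-α family and IFN-β) bind the IFNAR1 and IFNAR2 receptor, and the JAK1 and TYK2 kinases then activate a STAT complex that holds STAT2 and IRF9 and turns on many genes. Their products sense foreign RNA and DNA, block viral replication and feed back on the pathway, and in tumors they mark cells that have met interferon. IFN-γ, made by T and NK cells, signals through another receptor, and the genes it induces overlap in part with those of type I interferon.

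The question was whether rIL7 went with a different level of these genes. Summed over the 36 members, the level was 2726 CPM in the control section against 2707 CPM in rIL7, which gave 0.993 as the ratio (0.982 to 1.004). In rIL7, 18 members were higher and 18 were lower. The median log2 ratio was -0.00 over the members and -0.00 over the 10721 genes with a mean CPM of at least 5. Members thus differed in both directions, as all genes did, of which 5259 were higher in rIL7 and 5461 lower. Counting intervals lay above 1 for 8 members, below 1 for 13 and across 1 for 15. Over all genes tested they lay above 1 for 24.2% and below 1 for 26%.

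By a rule of at least 1.5-fold, 1 member was higher in rIL7 (Zbp1), where 3.26% of all genes tested were. On the lower side 2 members passed (Ifit3b and Usp18), against 2.2% of all genes. To describe the spread inside a section, each was divided into 4 quadrants, which are not replicates. In rIL7 the quadrants lay all above those of the control for 0 members (10% of all genes) and all below for 1, Usp18 (11% of all genes). For the quadrants, both shares of members were below those of all genes.

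**Figure D1:**
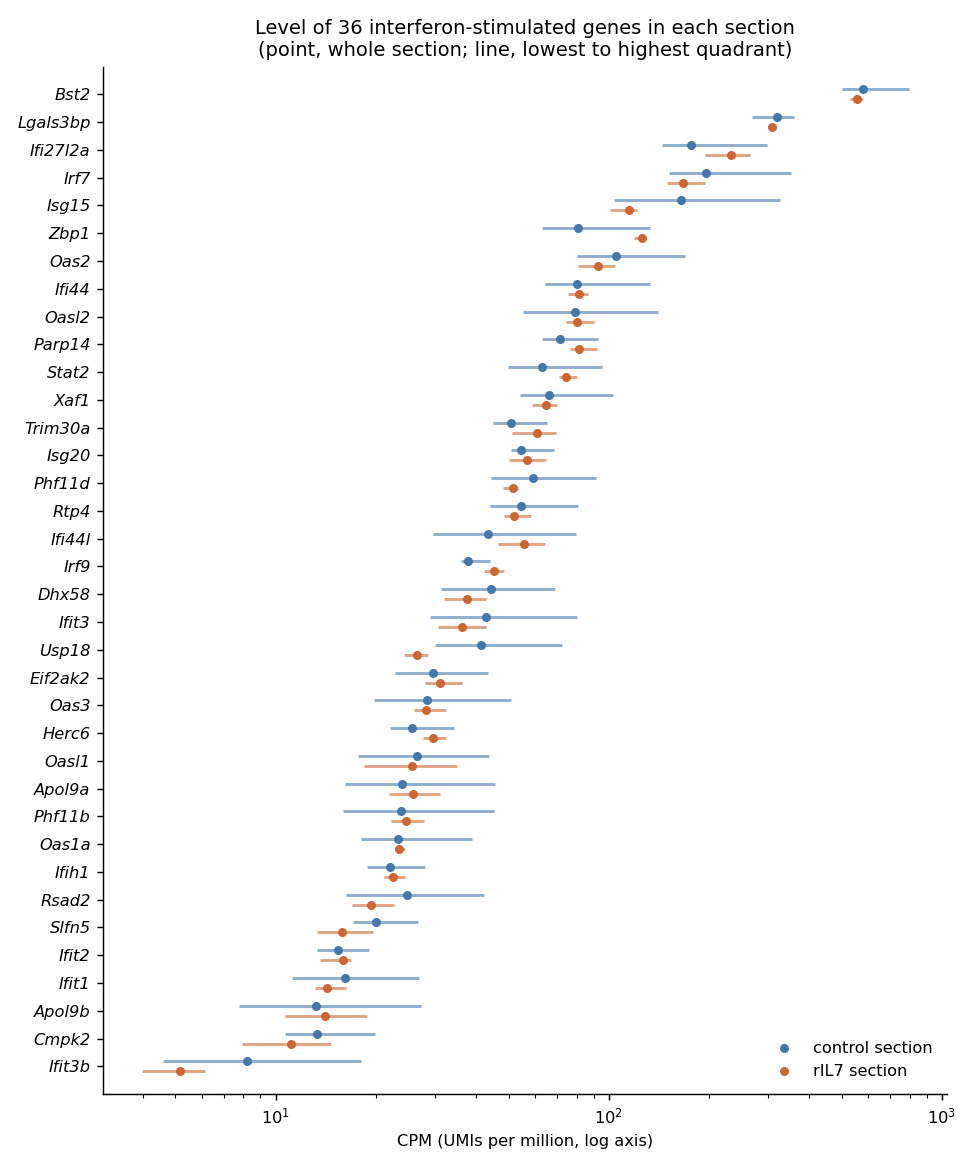
Level of each of the 36 members in the control (blue) and rIL7 (orange) sections, in CPM on a log axis; points are whole sections and lines run from the lowest to the highest of 4 quadrants. Control lines are long, reaching 326 CPM for Isg15, and the lines of both sections overlap for every gene but Usp18.

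A few membrane and secreted products held much of the signal. Bst2, which encodes tetherin, a membrane protein that holds budding virus at the cell surface, was the most abundant member at 581 CPM in the control section against 555 CPM in rIL7 (ratio 0.955, 0.933 to 0.978). It is on chromosome 8 (71534255 to 71537472 in GRCm38) and gave 21.3% and 20.5% of the member UMIs. Lgals3bp, which encodes a secreted galectin-binding glycoprotein, followed at 319 and 308 CPM (0.968, 0.937 to 0.999). Rtp4, a chaperone of membrane receptors, stood at 54.3 and 51.8 CPM. All 3 members of this role differed by less than 1.1-fold, and all 3 had overlapping quadrants.

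The ISG15 system was the role with the lowest ratio, at 232 CPM in the control section against 171 CPM in rIL7 (0.735, 0.707 to 0.766). Isg15, a ubiquitin-like protein that is attached to other proteins or secreted, stood at 165 and 115 CPM, 1.44-fold lower in rIL7 (1.37 to 1.51). Usp18, the protease that removes ISG15 and also dampens signalling at IFNAR2, stood at 41.3 and 26.5 CPM, 1.56-fold lower (1.41 to 1.72). The Usp18 quadrants ran from 30.1 to 72.5 CPM in the control and from 24.2 to 28.7 CPM in rIL7. Herc6, the mouse ligase that attaches ISG15, went the other way at 25.7 and 29.7 CPM (ratio 1.16, 1.04 to 1.29). Transcripts of the tag and of the protease were lower in the rIL7 section and that of the ligase higher, although the quadrants of Isg15 overlapped. Without the lower left quadrant of the control section the Usp18 log2 ratio was -0.41, short of 1.5-fold.

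The IFIT family, RNA-binding proteins that block translation of foreign RNA, summed to 82.4 CPM in the control against 71.5 CPM in rIL7 (0.868, 0.813 to 0.926). Its 4 members lie together on chromosome 19, from the start of Ifit2 at 34550550 to the end of Ifit1 at 34650009. Ifit3b had the lowest ratio of all members, at 8.19 and 5.17 CPM from 188 and 133 UMIs (1.58-fold lower, 1.26 to 1.99). Ifit3 stood at 42.7 and 36.1 CPM, Ifit1 at 16.2 and 14.2 CPM, and Ifit2 at 15.3 and 15.97 CPM. Ifit3 and Ifit3b are near-identical copies, so reads may be divided between them and the value of each is uncertain. Among these 4 genes the Ifit2 interval (ratio 1.04, 0.901 to 1.20) and the Ifit1 interval (0.880, 0.760 to 1.02) included 1. Quadrants of the IFIT sum overlapped, from 58.1 to 144 CPM in the control and from 65.7 to 78.9 CPM in rIL7. The highest control value was in the lower left quadrant. Without that quadrant of the control section the Ifit3b log2 ratio was -0.28, short of 1.5-fold.

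Among enzymes that act on nucleotides and RNA, Rsad2 (viperin, which makes a chain-terminating nucleotide) stood at 24.8 CPM in the control against 19.3 CPM in rIL7, 1.29-fold lower (1.14 to 1.46). Its neighbour on chromosome 12, the mitochondrial nucleotide kinase Cmpk2, stood at 13.3 and 11.2 CPM, 1.19-fold lower (1.01 to 1.40). Isg20, an exonuclease that degrades single-stranded RNA, stood at 54.5 and 56.7 CPM (ratio 1.04, 0.964 to 1.12). The OAS family, sensors of double-stranded RNA that activate RNase L and their relatives, held 263 and 251 CPM in sum (0.955, 0.922 to 0.989). Of its 5 members, Oas2 was the most abundant at 105 and 92.9 CPM (0.885, 0.836 to 0.937), and the other 4 had ratios between 0.965 and 1.01. Quadrants of the OAS sum overlapped, from 200 to 443 CPM in the control, highest in the lower left, and from 232 to 271 CPM in rIL7. Without the lower left quadrant of the control section the log2 ratios of Rsad2 and Cmpk2 were -0.15 and -0.11, against -0.37 and -0.25 with it.

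The sensors summed to 177 CPM in the control section against 217 CPM in rIL7 (1.22, 1.18 to 1.28), and Zbp1 differed most among them. Zbp1, a sensor of Z-form nucleic acids that can trigger inflammatory cell death, stood at 80.9 and 125 CPM, the highest ratio of all members (1.55, 1.46 to 1.64). Its control quadrants ran from 63.2 to 133 CPM and its rIL7 quadrants from 119 to 129 CPM, so they overlapped. Dhx58 (LGP2, a regulator of RNA sensing) stood at 44.3 and 37.6 CPM, Ifih1 (MDA5) at 22.1 and 22.4 CPM, and Eif2ak2 (PKR, a kinase that stops translation) at 29.6 and 31.2 CPM.

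The IFI44 and IFI27 group summed to 300.3 CPM in the control section against 370.1 CPM in rIL7 (1.23, 1.19 to 1.27). Ifi27l2a stood at 177 and 233 CPM (1.32, 1.27 to 1.37). Ifi44l stood at 43.3 and 55.7 CPM (1.29, 1.19 to 1.40), while Ifi44, adjacent on chromosome 3, stood at 80.4 and 81.6 CPM (1.01, 0.953 to 1.08). All 3 were higher in rIL7, and their quadrants overlapped.

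The transcription factors differed in direction. Irf7, the factor that amplifies interferon production and is itself induced by interferon, stood at 196 CPM in the control section against 167 CPM in rIL7 (0.854, 0.819 to 0.890). Its direction turned without the lower left quadrant of the control section described below, where its log2 ratio was 0.02. Stat2 stood at 63.0 and 74.2 CPM (1.18, 1.1001 to 1.26) and Irf9 at 37.9 and 45.1 CPM (1.19, 1.09 to 1.30). Because Irf7 is the most abundant, the sum of the 3 was lower in rIL7 (0.966) while their median log2 ratio was 0.24. Among the remaining regulators, Slfn5, a Schlafen-family regulator, stood at 19.96 and 15.8 CPM (1.26-fold lower, 1.104 to 1.45). Its direction differed by region: the rIL7 over control ratio was 1.30 (1.003 to 1.69) at the edge and 0.652 (0.553 to 0.768) in the interior, where it was the third member at least 1.5-fold lower. Trim30a, a ubiquitin ligase of the TRIM family, stood at 50.8 and 60.7 CPM (ratio 1.20, 1.11 to 1.29). The other 6 of that role (Parp14, Xaf1, Phf11b, Phf11d, Apol9a and Apol9b) had ratios between 0.872 and 1.14. Reads of Phf11b and Phf11d, of Apol9a and Apol9b, and of Oas1a and its relatives may also be divided between close copies.

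Interferon transcripts themselves were scarce. Among 21 interferon genes, Ifng alone reached 20 UMIs, with 53 UMIs in the control section and 142 in rIL7 (ratio 2.39, 1.73 to 3.34). Ifnb1, which encodes IFN-β, had 6 and 3 UMIs. Ifnab and Ifne had 1 UMI each, and the other 17, all listed IFN-α genes but Ifnab among them, had 0 UMIs. A count of 0 allows, as a one-sided limit, a level of up to 3 UMIs a section, so low interferon expression was not detectable at this depth.

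Genes associated with IFN-γ were higher in the rIL7 section. The list of 17 genes summed to 671 CPM in the control section against 1381 CPM in rIL7 (2.06, 2.02 to 2.10), 16 of 17 were higher in rIL7, and 12 of the 15 with a mean CPM of at least 5 were at least 1.5-fold higher. Irf1, an early transcription factor of the response, stood at 126 and 224 CPM, the guanylate-binding protein gene Gbp4 at 83.2 and 211 CPM, the immunity-related GTPase gene Iigp1 at 71.9 and 187 CPM, and the chemokine gene Cxcl9 at 56.6 and 170 CPM. The T cell marker list stood at 41.5 and 142 CPM and the NK cell list at 23.6 and 53.3 CPM, and their part in this difference was not tested.

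Receptor and JAK-STAT genes summed to 740 and 1006 CPM (1.36, 1.33 to 1.39), with 10 of 11 higher in rIL7. Jak2, a kinase of the IFN-γ receptor, stood at 54.5 and 118 CPM (2.17, 2.03 to 2.32), whereas Ifnar2 stood at 70.3 and 72.8 CPM (1.04, 0.969 to 1.11). The 14 genes of interferon induction (sensors, adaptors and kinases upstream of the interferon genes) had 8 higher, 6 lower and a median log2 ratio of 0.00. A further list of 43 interferon-stimulated genes outside the members summed to 7318 and 7328 CPM (1.001, 0.995 to 1.01). In it the chemokine gene Cxcl10 stood at 180 and 265 CPM (1.48, 1.42 to 1.53) and the membrane protein gene Ifitm3 at 2706 and 2554 CPM (0.944, 0.933 to 0.954).

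Within each section the members differed between the rim and the inside of the tumor. Spots within 2 grid steps of the outline of the tissue were called edge, 401 spots in the control section and 330 in rIL7, and the rest of the main piece interior. The member sum was 3790 CPM at the edge against 2459 CPM inside of the control section, and 3852 and 2495 CPM in rIL7. All 36 members were higher at the edge in the control, with a median log2 ratio of 0.64, and 35 of 36 in rIL7, with a median of 0.65. Over all genes tested the median was -0.06 in each section. Of 10720 genes, 4066 were higher at the edge in the control and 4466 in rIL7.

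In the control section 21 of 36 members were at least 1.5-fold higher at the edge, against 1.04% of all genes, and 0 were as much lower, against 2.49%. In rIL7 25 of 36 were at least 1.5-fold higher at the edge, against 7.65% of all genes, and 0 were as much lower, against 6.52%. In both sections the share of members higher at the edge stood far above that of all genes.

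Ifit3b, at 14.5 CPM at the edge against 6.63 CPM inside, had the highest edge ratio in the control section (2.19, 1.6 to 2.98). There Irf9 had the lowest, at 39.1 and 37.6 CPM (1.04, 0.876 to 1.23). Ifi27l2a was highest in rIL7, at 505 and 179 CPM (2.82, 2.67 to 2.98), and had 296 and 147 CPM in the control (2.01, 1.88 to 2.15). Isg20 was the exception in rIL7, at 41.8 CPM at the edge against 59.7 CPM inside (0.6998, 0.591 to 0.824), against 59.7 and 53.3 CPM in the control (1.12, 0.975 to 1.28). Isg15 stood at 278 and 137 CPM in the control (2.03, 1.90 to 2.18) and at 164 and 106 CPM in rIL7 (1.56, 1.42 to 1.7). Of the abundant members, Bst2 and Lgals3bp thus had shallower edge ratios (1.40 and 1.33 in the control, 1.22 and 1.21 in rIL7) than Isg15, Irf7 and Ifi27l2a.

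**Figure D2:**
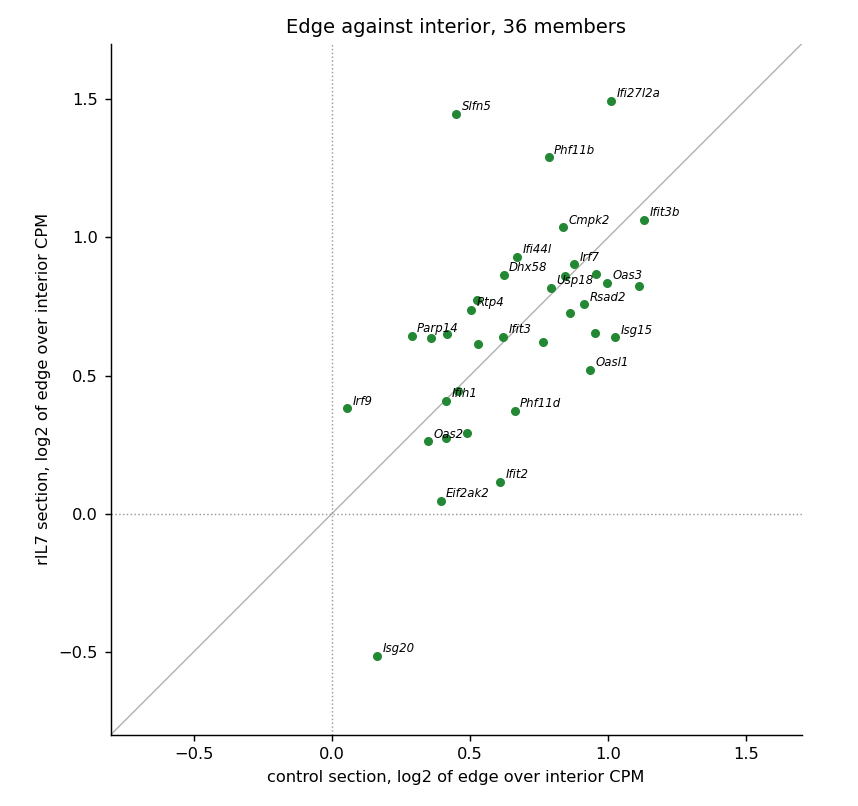
Log2 of edge over interior CPM for the 36 members, control section on the horizontal axis and rIL7 on the vertical axis; the grey line marks equal values, and some crowded points carry no name. All points but Isg20 lie above and to the right of 0, Ifi27l2a lies highest at 1.01 and 1.49, and Isg20 lies at 0.16 and -0.51.

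Other transcripts also differed between edge and interior. Summed macrophage markers stood at 3765 CPM at the edge against 3378 CPM inside of the control section, and at 6732 and 3396 CPM in rIL7. All 8 were higher at the rIL7 edge, 7 of 8 at the control edge. T cell markers stood at 47.6 and 39.9 CPM in the control and at 354 and 102 CPM in rIL7. Markers of plasmacytoid dendritic cells, a known source of type I interferon, stood at 20.6 and 9.95 CPM in the control and 55.05 and 12.6 CPM in rIL7. All 5 of the genes used in this list were higher at the edge in the control section. In rIL7 Ly6d had 2 UMIs, too few to give a direction, and the other genes used were higher at the edge. Cox6a2 and Klk1 gave most of the 283 control UMIs of this list and Siglech few, so the control sum rests little on Siglech. The part of these cell types in the member ratios was not tested. Neutrophil markers, edge before interior, stood at 83.9 and 158 CPM in the control and at 210 and 270.0 CPM in rIL7. Keratinocyte markers stood at 118 and 40.7 CPM in the control and at 29.6 and 39.1 CPM in rIL7, so that their order turned between the sections. The keratinocyte genes Krt5 and Krt14 had a UMI in 47 control spots, 25 of them at the edge. Without those spots all 36 members remained higher at the control edge, with a median of 0.66 (a calculation added after seeing the data, without a share of all genes).

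The decline inward was stepwise and differed in its depth. From 1 to 3 steps from the outline, the control section stood at 3665, 3917 and 3595 CPM, and rIL7 at 3588, 4078 and 3996 CPM. The control sum then declined through 3058 CPM at 4 steps and 2460 CPM at 7 to 8 steps to 1731 CPM at 12 or more steps. The rIL7 sum went through 3147 CPM at 4 steps to 2246 CPM at 7 to 8 steps, and was level at 2203 CPM at 9 to 11 steps and 2205 CPM beyond. At 12 or more steps 33 of 36 members were higher in rIL7, with a sum ratio of 1.27 and a median log2 of 0.40, where 40.2% of all genes were higher. Spots of that ring held a median of 8571 UMIs (control) and 15552.5 UMIs (rIL7). There, IFN-γ associated genes stood at 533 and 1099 CPM, macrophage markers at 2703 and 3174 CPM, T cell markers at 33.5 and 70.6 CPM and skeletal muscle genes at 171 and 6.28 CPM. Their part in the difference was not tested. At 5 to 6 steps 28 of 36 were lower in rIL7 (46% of all genes), and at 7 to 8 steps 24 of 36 (47.8%).

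Most members had their highest level just inside the outline rather than at it. The second step held the highest level for 19 members in the control section and 16 in rIL7, and the first step for 6 and 4. The deepest ring held the lowest level for 32 members in the control section and for 12 in rIL7. Such counts by ring were not made for all genes, so no share stands beside them. Isg15 ran from 299 CPM at step 2 to 71.2 CPM at 12 or more steps in the control section, and from a highest value of 207 CPM at step 3 to 98.6 CPM in rIL7. Zbp1 ran from 113 CPM at step 3 to 51.8 CPM in the control and from 206 CPM at step 2 to 95.9 CPM in rIL7. For Isg15 rIL7 was lower at the edge and higher in the core, whereas for Zbp1 rIL7 was higher at both.

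**Figure D3:**
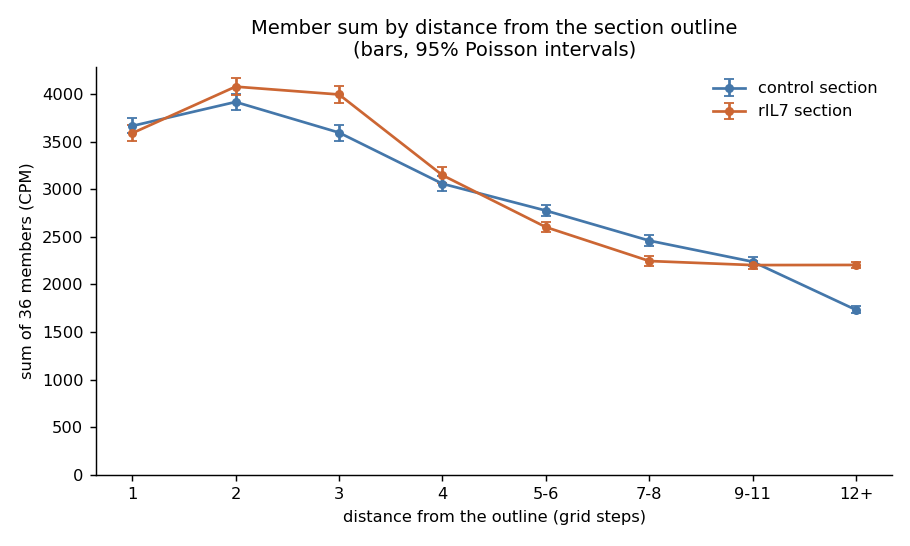
Sum of the 36 members in CPM against distance from the section outline in grid steps, control blue and rIL7 orange, with 95% Poisson intervals of the UMI counts. Both lines are highest at 2 steps (3917 and 4078 CPM), and in the last ring they part, at 1731 CPM in the control against 2205 CPM in rIL7.

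The signal of the control section was uneven. Its lower left quadrant stood at 4158 CPM for the member sum, against 2281 to 2781 CPM in the other 3, and it was the highest quadrant for 36 of 36 members. The share of all genes that were highest in that quadrant was not counted. The rIL7 quadrants ran from 2658 to 2834 CPM. The fold between the highest and the lowest quadrant had a median of 2.09 over the members in the control section, where all genes had 1.25, and 1.24 in rIL7, where all genes had 1.19. In the control it ran from 1.22 for Irf9 to 3.93 for Ifit3b.

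Edge spots made up 19.5% of that quadrant, and 14.6% to 19.97% of the others. Its median depth was 8083 UMIs per spot, against 12157 in the upper left and 8129 in the lower right. It also held the highest control sums of skeletal muscle genes (185 CPM, with 63.9 CPM in the whole section), IFN-γ associated genes (867 CPM), plasmacytoid dendritic cell markers (21.2 CPM) and proliferation genes (784 CPM). Sums of monocyte, dendritic cell, T cell and NK cell markers were also highest there. Macrophage markers were not, at 3159 CPM against 3457 CPM in the whole section. Neutrophil markers were lowest there, at 62.4 CPM against 143 CPM in the whole section. The lowest control sum of hypoxia genes was there, 430 CPM against 593 CPM in the whole section. The part of these values in the member levels was not tested.

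Without that quadrant, a calculation added after seeing the data, the control sum was 2443 CPM and the rIL7 section stood above it (1.11, 1.09 to 1.12). Then 27 of 36 members were higher in rIL7 and their median log2 ratio was 0.13, while the median of all genes was -0.00. How many of all genes were higher in rIL7 was not counted for this setting. The members at least 1.5-fold higher became Ifi44l, Ifi27l2a and Zbp1, against 3.3% of all genes, and 0 were as much lower, against 2.19%. Since that quadrant was chosen as the highest, leaving it out of the control alone had to raise the ratio. With the highest quadrant left out of both sections, the log2 ratio of the sum was 0.12 and the median over members 0.10. With the lower left quadrant left out of the control alone, Isg15 had a log2 ratio of -0.22, and Bst2 turned from -0.07 to 0.04. The edge pattern was kept without it: 35 of 36 members were higher at the control edge, with a median of 0.63. All genes were not counted in the same way.

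To look at single places, each spot was pooled with its up to 6 neighbours. The member sum of such a neighbourhood had a median of 2276 CPM in the control section against 2395 CPM in rIL7, and ran up to 15564 and 10263 CPM. The 90th percentile was 3.37 times the 10th in the control and 2.77 times in rIL7. In spots thinned to 5000 UMIs each, the median number of members with a UMI was 7.35 in the control and 7.89 in rIL7, and without thinning it was 12 and 15. Thinning left out 129 control and 49 rIL7 spots that were shallower.

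Patches of high member level were outlined after seeing the maps, as at least 3 touching neighbourhoods with a member sum of 2 times the section median or more. The control section had 13 patches over 239 spots (10.8% of spots) and the rIL7 section 9 patches over 137 spots (7.03%). Touching spots are not independent, so no interval is given for these shares. The patches held 23.6% of the control member UMIs with 9.16% of all UMIs, and 14.5% with 6.14% in rIL7. Median depth was 8159 UMIs in control patches and 9792 elsewhere, and 10675 and 13029 in rIL7. The largest control patch covered 63 spots at 9271 CPM and lay in the lower left, as did 50.6% of control patch spots. The largest rIL7 patch covered 43 spots at 6162 CPM in the upper left. In the control 83.7% of patch spots lay within 4 steps of the outline, where 33.1% of all spots did, and in rIL7 84.7%, where 31.8% did.

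**Figure D4:**
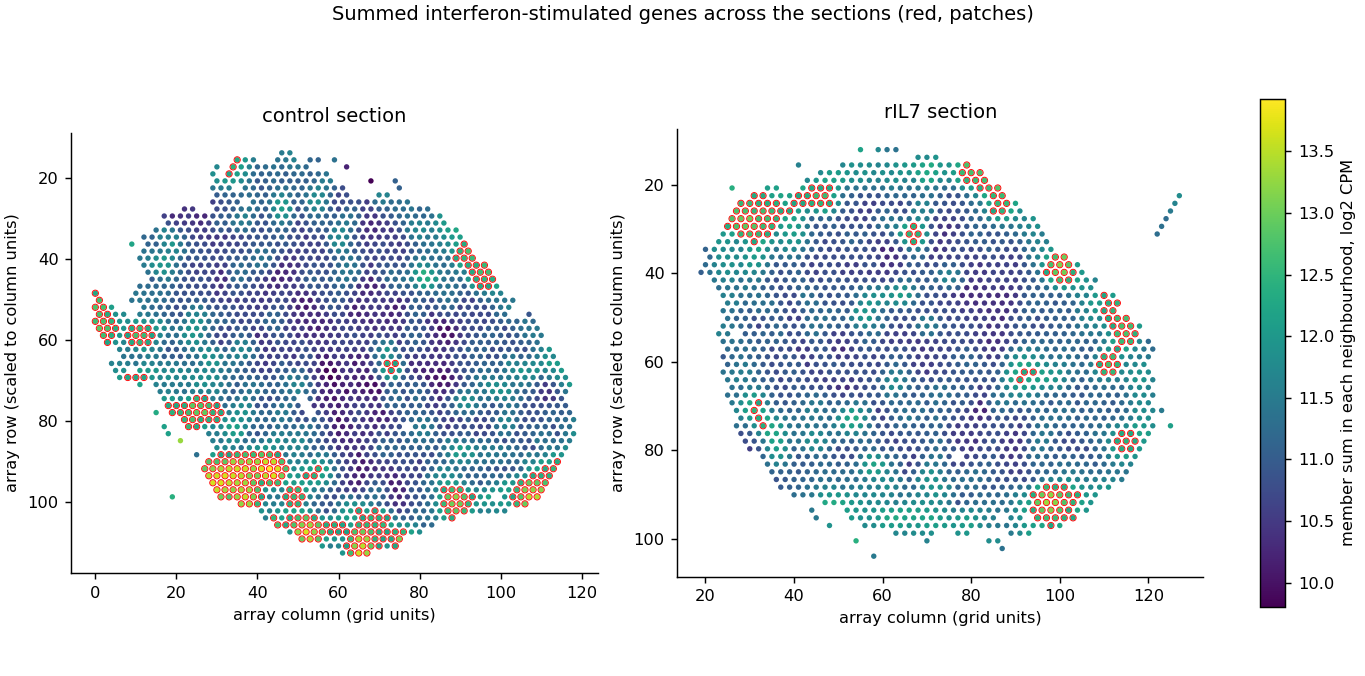
Maps of both sections with each spot coloured by the log2 CPM of the member sum over the spot and its neighbours (one colour scale), on array column and scaled array row; red rings mark the 13 control and 9 rIL7 patches. Most patch spots lie within 4 steps of the outline in both sections, and the largest and brightest patch lies in the lower left of the control. A few small patches lie deeper, up to 19 steps from the outline in the control and 15 in rIL7.

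Because patches were drawn from the member sum, the levels of members in them are a description of how unequally the genes took part. In the control section members stood at a median of 3.40 times their level elsewhere, and in rIL7 at 2.79 times. Ifit3b was steepest in both sections (7.19 and 7.05 times), followed by Isg15 in the control (5.79 times) and Rsad2 in rIL7 (6.19 times). Isg15 stood at 665 CPM in control patches and 115 CPM elsewhere, and at 433 and 93.7 CPM in rIL7. Rsad2 stood at 97.0 and 17.6 CPM in the control and 90.5 and 14.6 CPM in rIL7. Irf9 was flattest in both (1.51 and 1.49 times), at 54.7 and 36.2 CPM in the control.

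The transcripts outside the members differed in patches as follows. Cxcl10, the chemokine that draws CXCR3-bearing T cells, stood at 634 CPM in control patches and 134 CPM elsewhere (4.74, 4.43 to 5.06), and at 914 and 223 CPM in rIL7 (4.10, 3.87 to 4.35). Plasmacytoid dendritic cell markers were 3.51 times (2.66 to 4.60, from 74 patch UMIs) and 2.72 times (2.10 to 3.48) their level elsewhere. Of the 74 control UMIs, Klk1 gave 30, Ly6d 15, Cox6a2 15, Ccr9 10 and Siglech 4 (3.60, 0.837 to 12.2). Ly6d, which keratinocytes also express, had 0 UMIs in rIL7 patches, where Siglech had 12 (2.41, 1.19 to 4.46). Monocyte markers were 2.61 and 2.04 times, NK cell markers 2.55 and 2.15 times and T cell markers 1.62 and 2.00 times. Macrophage markers were 1.08 times in the control and 1.53 times in rIL7, and hypoxia genes 0.668 and 0.642 times. Keratinocyte markers were 4.93 times in the control and 0.939 times in rIL7. Ifng had 3 UMIs in control patches and 16 in rIL7 patches, and Ifnb1 had 2 and 0. The part of any cell type in the patches was not tested.

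Members tended to be high in the same neighbourhoods. Spearman's correlation between a member and the sum of the other members had a median of 0.55 over the 2219 control neighbourhoods and 0.54 over the 1950 of rIL7. These correlations are descriptions, since neighbourhoods overlap, share 1 library and share depth. Isg15 was highest in the control (0.84) and Irf7 in rIL7 (0.82). Ifit2 was lowest in the control (0.24), and Isg20 was lowest in rIL7 (0.00). In single spots, where counts are sparse, the medians were 0.29 and 0.27. Between a spot and its neighbours, the correlation of the same member had a median of 0.19 in the control and 0.18 in rIL7, against 0.02 and 0.03 over all genes tested. It was highest for Bst2 in the control (0.50) and Ifi27l2a in rIL7 (0.62), and lowest for Irf9 (0.02 and -0.02).

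Across neighbourhoods the member sum followed other interferon lists and ran against tumor markers. The Spearman correlation with the other interferon-stimulated genes was 0.88 in the control and 0.81 in rIL7, and with IFN-γ associated genes 0.62 and 0.61. With macrophage markers it was 0.28 in the control and 0.60 in rIL7, with T cell markers 0.20 and 0.55, and with monocyte markers 0.45 and 0.63. With CT26 tumor markers it was -0.49 and -0.57, and with hypoxia genes -0.27 and -0.36. With the total UMIs pooled over each neighbourhood, the member sum had a correlation of -0.13 in the control and -0.30 in rIL7. Spots at the outline have fewer neighbours and so pool fewer spots, and the correlation with the depth of single spots was not computed. With the 5 most abundant members left out, the values for macrophage markers were 0.21 and 0.57 and for tumor markers -0.47 and -0.55. Isg20 stood apart in rIL7, with 0.33 for hypoxia genes and -0.25 for macrophage markers.

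**Figure D5:**
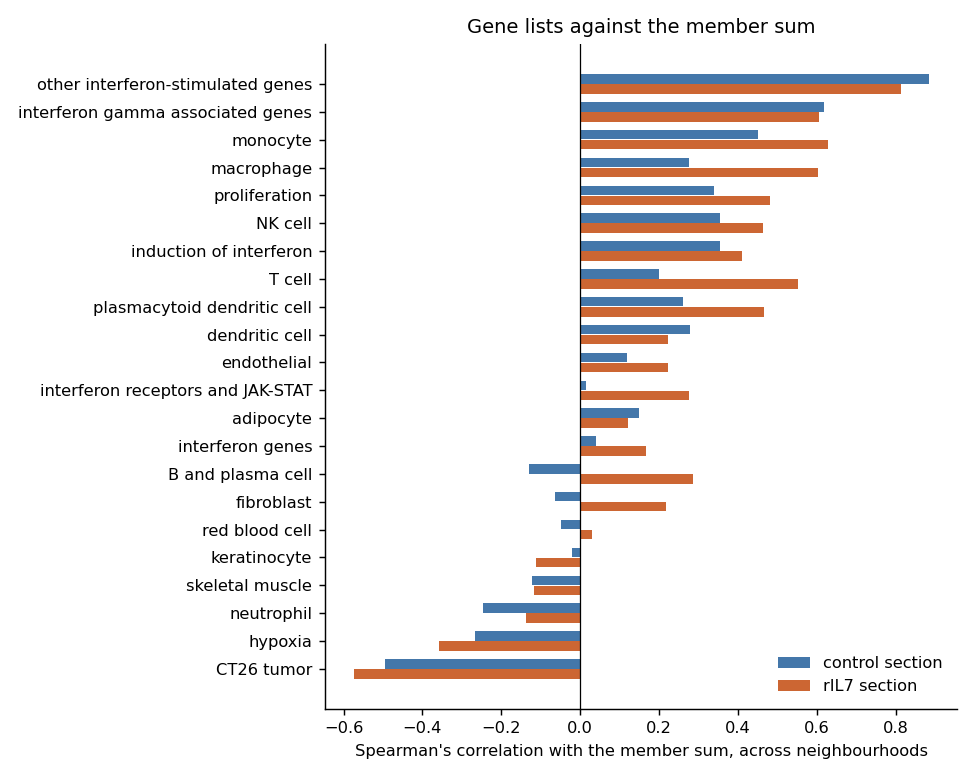
Spearman's correlation between the member sum and each gene list across neighbourhoods, control (blue) and rIL7 (orange), lists in order of their mean. Other interferon-stimulated genes are at the top (0.88 and 0.81) and CT26 tumor markers at the bottom (-0.49 and -0.57).

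Genes outside the members whose pattern was among the 10 most like the member sum, among 7583 with a mean CPM of at least 20 and by the mean correlation of both sections, included Cxcl10 (0.73), Cfb (0.71), Ly6a (0.70), Rnf213 (0.67), Ly6e (0.64), Ms4a4c (0.62), Fcer1g (0.61), Tap1 (0.57) and Ccl5 (0.57). The median over those 7583 genes was -0.02 in the control and -0.03 in rIL7. Cxcl10 stood at 0.73 in the control and 0.74 in rIL7, and Ly6e at 0.71 and 0.58. Cfb encodes complement factor B and Tap1 a peptide transporter of antigen presentation.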

How the data were processed

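Visium RNA capture (Spatial 3′ v1) was made on 1 control and 1 rIL7 tumor section. The authors processed reads with Space Ranger 1.1.0 against mm10 (GRCm38), giving the deposited tables of unnormalized UMI counts for every gene in every spot. The authors' array row, array column and tissue flag (other deposited columns) placed the spots, and image scale factors were not used.

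Spots with under 10% mitochondrial UMIs and more than 200 genes were kept, as in the study's methods, which removed 2 control spots and 1 rIL7 spot. Of the slide barcodes, 1702 occurred in both tables; a barcode is a slide position and not a cell. UMIs were summed per gene and section and divided by the section total (CPM). Ratios carry exact binomial (Clopper-Pearson) and levels exact Poisson intervals at 95%, which cover counting error only. Genes with a mean CPM of at least 5 entered the counts of 1.5-fold differences. The edge was the outermost 2 grid steps of the largest connected piece of tissue. Quadrants were cut at the median array row and column. Neighbourhoods joined a spot with its up to 6 neighbours, and thinning drew 5000 UMIs per spot without replacement. No test was run, since each group was 1 section.

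The members and gene lists were chosen with earlier results of these data known. Members named with values were the 5 highest in level, the 6 highest and 6 lowest ratios, the highest and lowest edge ratio per section and at least 1 per role; other members appear with values to complete a role. From the other lists at most 4 genes of high UMI number were to be named, and Ifnar2 was added after its values were seen. Among genes outside the members, 1 gene is not reported here. Coordinates are those of RefSeq genes of GRCm38, matched by symbol. Alternatives covered the spot filter, the scaling (median of ratios, TMM from edgeR 4.0.16 in R 4.3.3), spot weighting, edge width, and the size limits. Calculations used Python 3.11.15, numpy 2.4.6, scipy 1.17.1 and pandas 2.3.3, and were tested on simulated data.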

Additional observations from a re-analysis of the deposited data

Results flagged for a closer look

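Isg20 was the member whose edge over interior ratio lay on different sides of 1 in the 2 sections, 0.6998 (0.591 to 0.824) for rIL7 against 1.12 (0.975 to 1.28) for the control. The control interval includes 1, there is 1 section per group, and the difference between the sections was not tested.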

How the results depend on the processing

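With 1 section per group, no section could be left out. No paired analysis was possible because each group holds 1 section. For the median log2 ratio of rIL7 over control, the range used ran from -0.14 to 0.11. Its ends were the medians of the lower and of the upper interval ends of single members. It was thus as wide as the interval of a typical member, and is not an interval of the median itself. The median stayed within it under every alternative except leaving out the lower left quadrant of the control section (0.13). The log2 ratio of the sum (-0.01, -0.03 to 0.01) was -0.027 with spots weighted equally, 0.021 in the interior, 0.023 at the edge, 0.15 without that quadrant and 0.12 with the highest quadrant left out of both sections. The number of members at least 1.5-fold higher (1) was 3 at the edge, 3 without the quadrant and 0 at a fold of 2, and the number lower (2) was 0 without the quadrant, 0 without the highest quadrant of both sections, 3 in the interior, 0 at a fold of 2 and 1 at a mean CPM of at least 20. Among these alternatives, shares of all genes past the size rule were counted only without the lower left quadrant. The other counts therefore cannot be set against all genes. The median log2 of edge over interior (0.64 and 0.65) was set against a range built in the same way. It stayed within that range in both sections under every alternative, down to 0.45 (control) and 0.53 (rIL7) for an edge of 1 step. Members with a UMI per spot were 12 in the control and 15 in rIL7 without thinning, and the median correlation was 0.29 and 0.27 in single spots. Patches covered 21.1% of control and 20.1% of rIL7 spots at 1.5 times the median, and 3.92% and 0.872% at 3 times. The quadrants left out, the spots with Krt5 or Krt14 and the patches were chosen after seeing the data. Of 15 named members under 8 alternatives, 103 values stayed within their counting interval and 17 moved, 15 of these at the edge or in the interior alone. Those 8 do not include leaving out quadrants. With quadrants left out of the control alone or of both sections, 19 values moved and 11 stayed. For all values that moved, the cause was not tested. A promoter motif search was not run. Low depth limits genes of few UMIs: the Ifit3b ratio ran from 0.502 to 0.792.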
